A study of Mus musculus with 45 samples.

Results

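The genes described here are 7 genes of cholesterol synthesis and its control: Hmgcs1, Idi1, Fdps, Sqle, Lss, Insig1 and Srebf2. They were chosen by name, with earlier results of these data known, and all 7 were found among the 53491 genes of the deposited tables. None of the 7 encodes a receptor that takes cholesterol up, although the working name of the group includes uptake, so the values below concern synthesis and its control. The cells were primary cortical cells of wild-type (WT) mouse embryos, taken at E11.5, at E14.5 or at E16.5, which are early, middle and late stages of cortical neurogenesis. The 3 replicates of a stage (A, B and C) were separate pools, of 7 embryos for E11.5 and of 2 embryos for the later stages, dissociated, cultured and spread over 5 wells per pool. All wells received 100 uM 4-thiouridine (4sU) for 20 h, then 5 mM uridine, and 1 well per pool was lysed after 0, 2, 4, 8 or 12 h of this chase, which gave 45 libraries with no unlabelled control among them. In SLAM-seq, incorporated 4sU is read as T-to-C conversion, so that one library gives a transcript's level and its label content.

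Cholesterol is built from acetyl-CoA through mevalonate, isoprenoid diphosphates, squalene and lanosterol. When sterols in the endoplasmic reticulum are low, the transcription factor SREBP-2 is carried to the Golgi, cleaved and sent to the nucleus, where it activates the genes of this pathway, and INSIG proteins hold it back when sterols are high. Proliferating cells of the embryonic brain make most of their own cholesterol, since lipoproteins do not readily enter the brain.

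Coordinates are those of mouse build GRCm38 (mm10) in the GENCODE vM21 annotation. Hmgcs1 (ENSMUSG00000093930), the cytosolic synthase of HMG-CoA at the entry to the mevalonate pathway, lies on the plus strand at chr13:119690379-119708260. Idi1 (ENSMUSG00000058258), which interconverts the 2 five-carbon isoprenoid diphosphates, lies on the plus strand at chr13:8885501-8892451. Fdps (ENSMUSG00000059743), which joins them to farnesyl diphosphate, lies on the minus strand at chr3:89093588-89101959. Sqle (ENSMUSG00000022351), the epoxidase that adds the first oxygen to squalene, lies on the plus strand at chr15:59315077-59331192. Lss (ENSMUSG00000033105), which closes the sterol rings to give lanosterol, lies on the plus strand at chr10:76531588-76557138. Insig1 (ENSMUSG00000045294), the sterol-dependent retention factor, lies on the plus strand at chr5:28071363-28078662. Srebf2 (ENSMUSG00000022463), which encodes SREBP-2, lies on the plus strand at chr15:82147181-82205379 and holds the microRNA gene Mir33 within its locus.

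The promoter windows of 5 of the 7 genes are shown because a motif known for SREBP binding and the CCAAT box, bound by its partner NF-Y, were searched there. The windows are RefSeq's, on GRCm38.p6, and span 250 bases before to 50 bases after the transcription start, and Sqle and Fdps had no entry in that table. The sterol element-like motif TCACNCCA and the motif CCAAT were searched on both strands, and capitals mark the matches, with a CCAAT match on the opposite strand reading as its reverse complement. The stretches below read 5′ to 3′ on the plus strand, which is the strand of all 5 genes. They lie at chr13:119690163-119690238 (Hmgcs1), chr15:82147095-82147158 (Srebf2), chr13:8885549-8885616 (Idi1), chr10:76531531-76531567 (Lss) and chr5:28071184-28071220 (Insig1).
Hmgcs1: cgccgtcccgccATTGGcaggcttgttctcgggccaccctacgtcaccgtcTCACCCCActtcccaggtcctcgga
Srebf2: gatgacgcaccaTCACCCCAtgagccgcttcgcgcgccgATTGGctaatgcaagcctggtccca
Idi1: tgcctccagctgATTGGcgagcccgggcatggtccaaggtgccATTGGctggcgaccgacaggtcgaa
Lss: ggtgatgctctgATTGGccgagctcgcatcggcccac
Insig1: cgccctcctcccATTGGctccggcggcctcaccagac

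The sterol element-like motif was present in 2 of these 5 windows, 137 bases before the start of Hmgcs1 and 162 bases before that of Srebf2, and 4.36% of all 32851 windows hold it. CCAAT was present in all 5 windows, each time on the opposite strand, and 37.4% of all windows hold it. Hmgcs1 carried 4 CCAAT matches and Idi1 2, and the other 3 genes carried 1 each. Among the 17 windows of 14 other enzymes of the sterol pathway, 1 held the sterol element-like motif and 13 held CCAAT. Matches are descriptions of letters and not of bound sites.

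**Figure D1:**
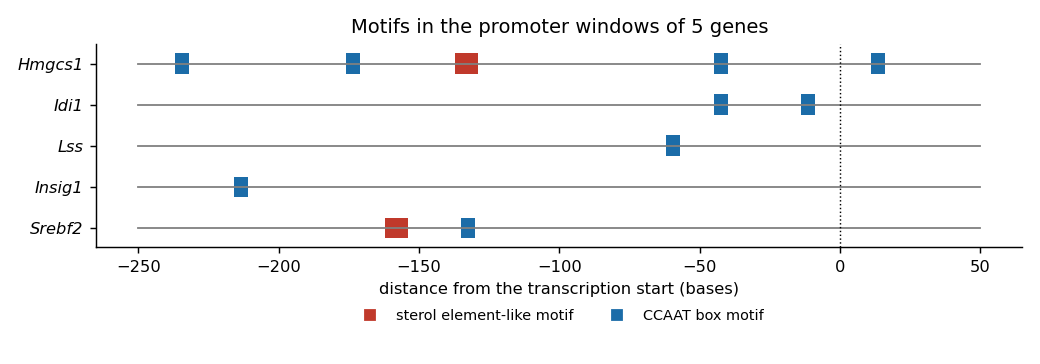
Positions of the 2 motifs in the promoter windows of 5 genes, as distance in bases from the transcription start (dotted line); red boxes are sterol element-like matches and blue boxes CCAAT matches on either strand. The red box of Hmgcs1 starts 137 bases and that of Srebf2 162 bases before the start, and every one of the 5 genes has at least 1 blue box.

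Some member transcripts resemble other places in the genome, which bears on their measured levels. Of the stretches of 50 bases in the longest coding isoform of Idi1, 80.0% were also found, without mismatch, outside its locus, at 5 other places. The share was 55.1% for Fdps, at 7 other places, 32.1% for Insig1 and 8.73% for Hmgcs1, at 1 other place each, and 0% for Sqle, Lss and Srebf2. How reads with several alignments were counted is not given in the sources used here, so the levels of Idi1 and Fdps in particular are uncertain, and their comparison with other genes more so than their comparison between libraries. Fdps also overlaps the protein-coding gene model Gm43738 on its own strand, and Srebf2 overlaps the gene model Gm49502 on its own strand. Hmgcs1, Lss and Idi1 each overlap a gene model on the opposite strand. The library kit keeps strand, but whether strand was used in counting is not given in the sources used here.

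The 3′ untranslated regions of the longest coding isoforms fell into a short and a long class. They measured 55 bases for Fdps and 275 for Sqle, and 1462 for Srebf2, 1782 for Hmgcs1, 1816 for Idi1, 1842 for Insig1 and 2411 for Lss, beside a median of 1182 over 8809 measured protein-coding transcripts. The AU-rich pentamer ATTTA, known from unstable transcripts, occurred 6 times in that of Idi1, 4 times each in those of Hmgcs1 and Insig1, 2 times each in those of Lss and Srebf2 and not in those of Fdps and Sqle. The median over all measured transcripts was 2, and 71.3% held at least 1.

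The 45 libraries held 15.9 to 43.9 M reads and 229 to 629 M covered Ts, and each member was covered by at least 1825 Ts in each library. In the E11.5 libraries of 12 h, the ribosomal RNA-like gene Gm42418 stood at 29686 to 67623 cpm, against 1485 to 20507 cpm in the other 42 libraries. The 5 radial glia markers Sox2, Pax6, Nes, Hes5 and Vim and the 5 neuron markers Neurod2, Dcx, Tubb3, Tbr1 and Map2 were measured at every stage, which fits the labelled cortical cells. E11.5 libraries of 0 h also held 1640 to 3622 cpm of 5 erythroid markers and 337 to 524 cpm of 5 meningeal and mural markers, at most 61.7 and 21.4 cpm at the later stages, and the 5 microglia markers summed to no more than 9.07 cpm in any 0 h or 12 h library.

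Between stages at 0 h of chase, 6 of the 7 genes fell from E11.5 to E16.5 and Srebf2 did not pass the test. Levels were compared at 0 h of chase with edgeR's quasi-likelihood test on covered-T counts, and a gene counted as called where its Benjamini-Hochberg adjusted p, over the 18408 genes tested, was under 0.05. From E11.5 to E16.5, 6 of 7 members were called lower, where 33.1% of all genes tested were called lower, and their median log2 fold change was -0.91 beside -0.04 over all genes. Hmgcs1, Idi1 and Fdps fell more than 2-fold. In the 12 h libraries the means of Hmgcs1, Idi1 and Fdps in cpm, without the library scaling (TMM) of the test, were again lower at E16.5 than at E11.5. Those of Lss (170 cpm at E11.5 and 223 cpm at E16.5) and Sqle (303 and 393 cpm) were higher there. That of Insig1 moved little (119 and 111 cpm). From E14.5 to E16.5 the same count, 6 of 7, was called lower, where 25.4% of all genes were, and from E11.5 to E14.5 2 of 7 were called lower, a share near the 23.5% of all genes. No member was called higher in any of the 3 comparisons, where 31.4%, 24.1% and 25.1% of all genes were, in the same order. In these cultures of mixed cells, fewer cells of a type and less RNA per cell cannot be told apart.

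Hmgcs1 stood at 3117, 2678 and 2626 cpm in replicates A, B and C of E11.5, at 1550.5, 1655 and 1948 cpm for E14.5 and at 1045, 1032 and 989.9 cpm at E16.5. The 3 stages did not overlap, and each step down exceeded the spread between replicates. Its log2 fold change was -0.68 ± 0.09 (SE) over the step to E14.5 (adjusted p = 2.6e-05) and -0.71 ± 0.09 over that to E16.5 (adjusted p = 2.2e-05), and in all its level fell 2.63-fold. Per kilobase of exon, Hmgcs1 had the highest level of the 7 genes at each stage, from 611 ± 58.7 cpm per kilobase (SD, n = 3) at E11.5 to 223 ± 6.28 at E16.5.

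Idi1 was measured at 27.6, 27.8 and 22.7 cpm at E11.5, at 18.7, 16.49 and 16.8 cpm for E14.5 and at 6.47, 6.52 and 6.89 cpm at E16.5. The stages were again fully separated, and the drop of 3.82-fold from E11.5 to E16.5 was the largest of the 7 members (log2 fold change -1.93 ± 0.10, adjusted p = 3.1e-09). Its log2 fold change was -0.56 ± 0.10 over the first step (adjusted p = 0.00043) and -1.38 ± 0.10 over the second (adjusted p = 3.4e-07). Idi1 had the lowest level per kilobase at each stage, 7.43 ± 0.82 cpm per kilobase at E11.5.

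Fdps was measured at 67.2, 77.5 and 60.5 cpm at E11.5, at 60.8, 60.7 and 75.9 cpm for E14.5 and at 25.7, 26.2 and 25.6 cpm at E16.5. Its E11.5 and E14.5 libraries overlapped, with a log2 fold change of -0.01 ± 0.10 (adjusted p = 0.97), and those of E16.5 lay below both. The fall from E14.5 to E16.5 was -1.33 ± 0.10 on the log2 scale (adjusted p = 4.8e-07), so that the 2 isoprenoid enzymes, Idi1 and Fdps, had the largest falls of the 7 genes over that step.

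The squalene and lanosterol enzymes showed the same timing as Fdps with smaller changes. Lss stood at 473, 476 and 393 cpm at E11.5, at 392.2, 432 and 416 cpm for E14.5 and at 229, 224 and 232 cpm at E16.5. The first 2 stages overlapped (log2 fold change -0.06 ± 0.07, adjusted p = 0.53), and E16.5 lay below both, by -0.81 ± 0.07 from E14.5 (adjusted p = 1.7e-06). Sqle, at 465, 544 and 421 cpm at E11.5, 482, 523 and 468 cpm at E14.5 and 394, 361 and 391 cpm at E16.5, had the smallest change that passed the test. Its E16.5 libraries lay below all others, with a log2 fold change of -0.35 ± 0.09 from E14.5 (adjusted p = 0.0049) and of -0.26 ± 0.09 from E11.5 (adjusted p = 0.018), and 0.09 ± 0.09 between E11.5 and E14.5 (adjusted p = 0.44). The call against E11.5 was lost without replicate B of E11.5 (-0.16), A of E16.5 (-0.26) or B of E16.5 (-0.22), with adjusted p from 0.057 to 0.089 in edgeR. Compared in the 12 h libraries in place of those of 0 h, Sqle (0.27) and Lss (0.29) were both higher at E16.5 than at E11.5.

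Of the 2 regulators, Insig1 fell and Srebf2 kept its level within the replicate spread. Insig1 stood at 314, 361 and 267 cpm at E11.5, at 267, 273 and 257 cpm for E14.5 and at 171, 141 and 162 cpm at E16.5. E11.5 and E14.5 overlapped at their edges (log2 fold change -0.16 ± 0.09, adjusted p = 0.18), while E16.5 was separate and lower by -0.75 ± 0.09 than E14.5 (adjusted p = 2.2e-05). Srebf2 stood at 711, 766 and 681 cpm at E11.5, at 706, 732 and 614 cpm for E14.5 and at 699, 639 and 667 cpm at E16.5, and all 3 stages overlapped. From E11.5 to E16.5 its log2 fold change was -0.04 ± 0.07 (adjusted p = 0.64), and per kilobase its level, 100.1 ± 6.03 cpm per kilobase at E11.5, was close to that of Insig1 (101.6 ± 15.2) at E11.5 and above it at the later stages.

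**Figure D2:**
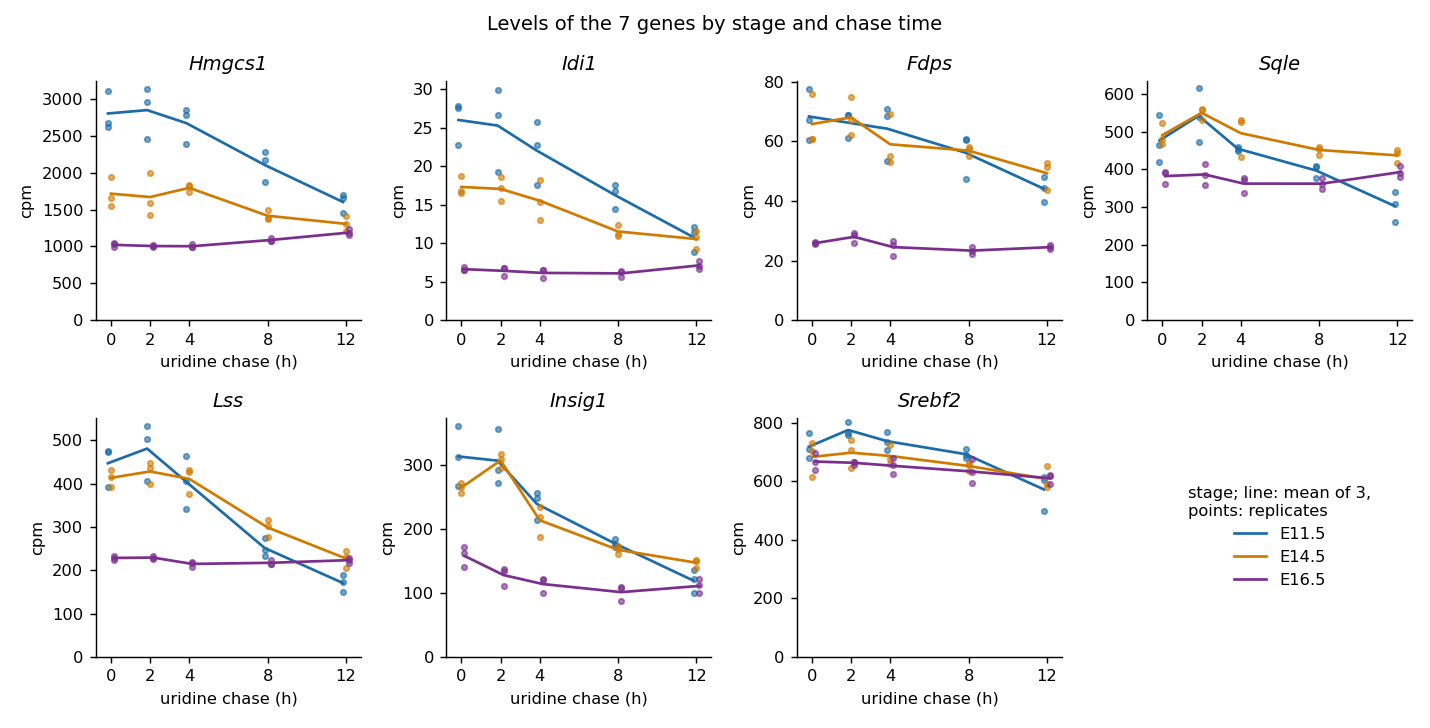
Level of each of the 7 genes in cpm (each axis starts at 0) against hours of uridine chase, coloured by stage, with points for the 3 replicates and lines through their means. At 0 h, E16.5 is below E11.5 and E14.5 for all but Srebf2, and along the chase the E11.5 and E14.5 lines of Lss and Insig1 fall towards or below those of E16.5.

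The radial glia markers moved in the same direction as these genes: the sum over the 5 markers was 7919 to 8425 cpm at E11.5, 2502 to 3189 cpm at E14.5 and 978 to 1074 cpm at E16.5 at 0 h. The sum over the 5 neuron markers moved the other way, from 2659 to 3210 cpm at E11.5, through 4558 to 5049 cpm, to 6570 to 6909 cpm at E16.5. The part of cell composition in the fall of the members was not tested.

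The other genes of the pathway were examined as fixed lists. Of 17 further enzymes of the mevalonate and sterol pathway, 16 were called lower and 1 higher from E11.5 to E16.5, where 33.1% of all genes were called lower and 31.4% higher, with a median log2 fold change of -1.34 beside -0.04 over all genes. Tm7sf2 (-2.09 ± 0.11), Nsdhl (-1.65 ± 0.06), Mvd (-1.64 ± 0.13) and Lbr (-1.64 ± 0.07) had the largest changes, and Mvd makes isopentenyl diphosphate while the other 3 act after lanosterol. Of 8 fatty acid synthesis genes, all 8 were called lower, again beside 33.1% of all genes, with Scd1, a desaturase, at -2.15 ± 0.09 and Acly, which makes cytosolic acetyl-CoA, at -1.81 ± 0.09. Of 10 further genes of sterol sensing and uptake, 6 were called lower and 3 higher, against the same 33.1% and 31.4%, among the lower the sterol carrier gene Stard4 (-1.79 ± 0.11), the lipoprotein receptor gene Scarb1 (-1.31 ± 0.11) and the lysosomal carrier gene Npc2 (-1.02 ± 0.06). Where 31.4% of all genes were called higher, the 6 efflux and carrier genes had 4 called higher and 1 lower. Abca1, a cholesterol exporter, rose from 1.60 ± 0.64 cpm (SD, n = 3) at E11.5 to 19.5 ± 2.88 cpm at E16.5, and its E16.5 libraries lay far above those of E11.5 (log2 fold change 3.71 ± 0.29).

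Along the chase, member levels fell at the 2 earlier stages and not at E16.5 as a group. After 12 h at E11.5, 6 of 7 were called lower, where 9.83% of the 17904 genes tested were, and none higher, where 13.2% were. After 12 h at E14.5, 5 of 7 were called lower, where 7.41% of 17956 genes were, and none higher, where 7.64% were. After 12 h at E16.5, 1 of 7 was called lower, where 12% of 18008 genes were, and 1 was called higher, where 14.2% were. The median log2 fold change of the members was -0.61 for E11.5, -0.40 for E14.5 and -0.03 for E16.5.

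**Figure D3:**
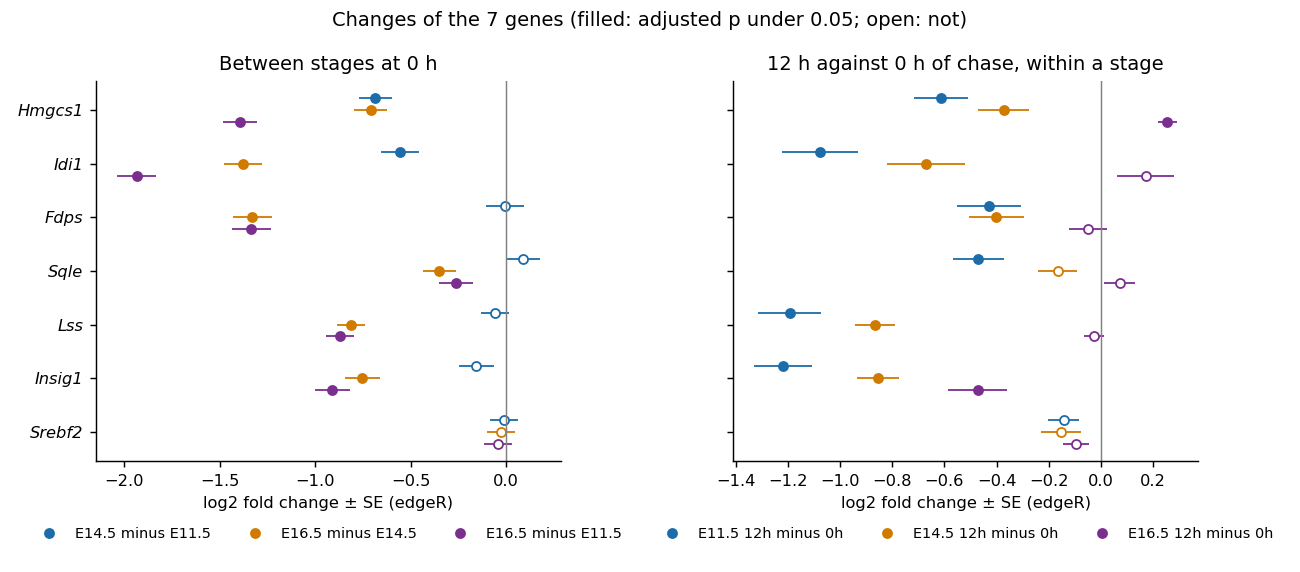
Log2 fold changes of the 7 genes with standard errors (edgeR), between stages at 0 h on the left and between 12 h and 0 h of chase within each stage on the right; filled points have an adjusted p under 0.05. Idi1 has the largest fall between stages, -1.93, and on the right Hmgcs1 is the one filled point above 0, at 0.26 at E16.5.

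Insig1 and Lss fell most over 12 h at E11.5. Insig1 dropped from its 0 h values to 122, 136 and 101 cpm, a log2 fold change of -1.22 ± 0.11 (adjusted p = 2.5e-06). Lss dropped to 172, 189 and 150.3 cpm, by -1.19 ± 0.12 (adjusted p = 6.9e-06). Neither gene's 12 h libraries overlapped those of 0 h. Idi1 dropped to 11.46, 12.1 and 8.83 cpm, by -1.08 ± 0.14 (adjusted p = 7.5e-05), so that these 3 genes fell more than 2-fold, again without overlap. The changes of Hmgcs1 (-0.61 ± 0.10, to 1705, 1657 and 1451 cpm, adjusted p = 0.00054), Sqle (-0.47 ± 0.10, to 309, 339.7 and 260.5 cpm, adjusted p = 0.0025) and Fdps (-0.43 ± 0.12, to 44.2, 48.2 and 39.8 cpm, adjusted p = 0.018) were smaller and also without overlap. The count of 6 was 4 without replicate A and 5 without replicate B: the call of Fdps was lost in both cases (edgeR, adjusted p = 0.16 and 0.15) and that of Sqle without A (adjusted p = 0.070). Srebf2, at 604, 614 and 499.7 cpm, lay below its 0 h libraries in every replicate, by -0.14 ± 0.06, and passed the test only with the pool as a block (adjusted p = 0.10 without and 0.017 with the block).

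The 12 h libraries of E11.5 are those with high Gm42418, and the sum over the 5 radial glia markers was lower there too, 5590 to 6742 cpm. Over the same 12 h the sum over 3 intermediate progenitor markers went from 172 to 180 cpm down to 108 to 129 cpm, and that over 5 astrocyte markers from 104 to 120 cpm up to 222 to 245 cpm. Of those 5, Gfap and S100b had means under 1 cpm at both times, so the sum rests on the others. The part of Gm42418 or of any of these marker sums in the falls was not tested. At 8 h, when Gm42418 stood at 3755 to 5102 cpm, Lss (-0.83 ± 0.12), Insig1 (-0.82 ± 0.11), Idi1 (-0.66 ± 0.14) and Hmgcs1 (-0.41 ± 0.10) were already called lower, 4 of 7 where 5.96% of all genes were, with no member called higher, where 8.15% of all genes were. That count was 2 without replicate A or without replicate B, and 6 with the pool as a block, which added Sqle (-0.26 ± 0.06, adjusted p = 0.0045) and Fdps (-0.28 ± 0.07, adjusted p = 0.0075). Of all 17904 genes, the block called 1873 lower and 2408 higher.

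At E14.5 the order was similar. Lss went to 206, 245 and 231 cpm (-0.87 ± 0.08, adjusted p = 4.8e-06) and Insig1 to 139.7, 152 and 151 cpm (-0.85 ± 0.08, adjusted p = 6.3e-06), both below all 0 h libraries of the stage. Idi1 (-0.67 ± 0.15, adjusted p = 0.0066), Fdps (-0.40 ± 0.11, adjusted p = 0.018) and Hmgcs1 (-0.37 ± 0.10, adjusted p = 0.017) were also called lower. Sqle had a value of -0.17 ± 0.08 (adjusted p = 0.16) and Srebf2 one of -0.15 ± 0.08 (adjusted p = 0.19), and neither passed the test. The count of 5 was 3 without any 1 of the replicates A, B and C: the call of Hmgcs1 was lost in each case, that of Fdps without A or B and that of Idi1 without C. Over these 12 h the sum over 5 oligodendrocyte lineage markers was 290 to 480 cpm at 0 h and 756 to 932 cpm at 12 h, beside 292 to 328 cpm and 571 to 628 cpm at E16.5, and its part in the falls was not tested.

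At E16.5 Insig1 and Hmgcs1 went in opposite directions. Insig1 went from 171, 141 and 162 cpm to 121, 100.5 and 112 cpm, lower in each replicate and without overlap (-0.47 ± 0.11, adjusted p = 0.0060). Hmgcs1 rose to 1238, 1150 and 1178 cpm, above all its 0 h libraries (0.26 ± 0.04, adjusted p = 9.6e-05). Without replicate C the call of Insig1 was lost (-0.44, adjusted p = 0.075 in edgeR), while that of Hmgcs1 passed without any 1 of the replicates. Lss (-0.03 ± 0.04), Fdps (-0.05 ± 0.07), Sqle (0.07 ± 0.06) and Idi1 (0.17 ± 0.11) did not pass the test, and Srebf2 (-0.09 ± 0.05) passed it only with the pool as a block (adjusted p = 0.18 without and 0.036 with the block).

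Insig1 was the first of the 7 to fall. After 4 h of chase it was the only member called at each stage, at -0.41 ± 0.11 for E11.5 (adjusted p = 0.037), -0.32 ± 0.08 for E14.5 (adjusted p = 0.025) and -0.43 ± 0.11 for E16.5 (adjusted p = 0.018), where 2.35%, 1.89% and 6.47% of all genes were called lower and 3.89%, 4.71% and 7.54% higher. That call was lost without replicate A or B for E11.5 and for E14.5, and without A or C for E16.5. With the pool as a block, Idi1 (-0.25 ± 0.08, adjusted p = 0.036) was called beside it at E11.5, where 1189 of 17904 genes were called lower and 1762 higher. At 8 h, 3 of 7 members were called lower at E14.5, where 3% of all genes were (3.19% higher), and 1 of 7 at E16.5, Insig1, where 8.59% were, with Hmgcs1 called higher (0.13 ± 0.04), where 10.8% were. With the pool as a block, Hmgcs1 (-0.24 ± 0.07, adjusted p = 0.024) was called beside these 3 at E14.5, where 1458 of 17956 genes were called lower and 1682 higher. Without replicate B the E14.5 count was 1, and without B or C the 2 calls at E16.5 became 1. After 2 h and without the pool as a block, no member was called at any stage by edgeR or DESeq2. Of all genes, edgeR called 0.849% and 0.48% higher and lower for E11.5, 0.524% and 0.858% for E14.5 and 2.93% and 2.87% for E16.5. An unadjusted p under 0.05 was reached by 0, 2 and 1 members, in the same order of stages. With the pool as a block, the 2 h values of Insig1 (0.26 ± 0.07, adjusted p = 0.022) and Sqle (0.22 ± 0.06, adjusted p = 0.035) were called higher at E14.5 and that of Insig1 (-0.28 ± 0.04, adjusted p = 0.00011) lower at E16.5. Of all genes at 2 h, the block called 557 higher and 824 lower at E14.5 (of 17956) and 1227 higher and 1411 lower at E16.5 (of 18008). The 2 h values of Insig1 were 317, 311 and 296 cpm at E14.5 and 138, 111 and 135 cpm at E16.5, above all 3 libraries of 0 h in the first case and below them in the second.

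By 12 h the order of stages in cpm, without the library scaling (TMM) of the edgeR tests, had changed for some genes. Lss overlapped between E11.5 and E14.5 at 0 h, and after 12 h its 3 E11.5 libraries lay below all those of E14.5 and E16.5. Sqle likewise went from the range of E14.5 to below both later stages. Hmgcs1 stayed highest at E11.5, with 1451 cpm as its lowest value against 1414 cpm as the highest of E14.5.

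Whether the 12 h change itself differed between stages was tested by the interaction of stage and chase over all 45 libraries and 16559 genes. Between E16.5 and E11.5 it differed for 5 of 7 members, all with the higher value at E16.5, where 3.47% of all genes were called in that direction and 5.43% in the other. The differences were 1.25 ± 0.20 for Idi1 (adjusted p = 7.3e-05), 1.17 ± 0.13 for Lss (adjusted p = 6.2e-08), 0.87 ± 0.13 for Hmgcs1 (adjusted p = 1.5e-05), 0.75 ± 0.16 for Insig1 (adjusted p = 0.0016) and 0.54 ± 0.12 for Sqle (adjusted p = 0.0024). Between E16.5 and E14.5, 3 of 7 differed in the same direction, where 0.64% of all genes did and 0.266% in the other: Idi1 (0.87 ± 0.20, adjusted p = 0.029), Lss (0.87 ± 0.13, adjusted p = 0.00013) and Hmgcs1 (0.66 ± 0.13, adjusted p = 0.0054). Without replicate A or without C of E16.5, this count of 3 was 1. With the pool as a block, the counts were 6 in each of these 2 comparisons. The block also called more of all 16559 genes in that direction, 1367 against E11.5 and 702 against E14.5. Between E14.5 and E11.5 edgeR called none of the 7, on covered Ts or on recovered reads, where 1.36% and 4.7% of all genes were called up and down, with 3 at an unadjusted p under 0.05, with 4 with the pool as a block (Lss, Insig1, Sqle and Idi1), and with 1 without replicate C of E11.5. In that comparison the block called 692 of all genes up and 1660 down.

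Of the other pathway lists, the sterol enzymes had counts at E11.5 and E14.5 like those of the members and the other lists did not. Of the 17 further sterol enzymes, 11 were called lower after 12 h in E11.5 and 12 in E14.5, where 9.83% and 7.41% of all genes were. In E16.5, 0 of them were called lower and 4 higher, where 12% and 14.2% of all genes were, among them Mvd (0.48 ± 0.07) and Nsdhl (0.32 ± 0.06). The 12 h change of 12 of the 17 was higher at E16.5 than at E11.5 by the interaction test, where that of 3.47% of all genes was. By the same test, so was that of 5 of the 8 fatty acid synthesis genes. It was also higher for 2 of the 10 genes of sterol sensing and uptake and for 0 of the 6 efflux and carrier genes. Of the 8 fatty acid synthesis genes, 0 were called at E11.5 and 1 was called lower at E14.5, Elovl6 (-0.39 ± 0.07), an elongase named here after its value was seen. At E16.5, 6 of the 8 were called higher, led by Scd1 (0.61 ± 0.05), beside the 14.2% of all genes. At E11.5, Scd1 had a value of -0.21 ± 0.13 and Fasn one of -0.49 ± 0.19, and neither passed the test. Of the 10 genes of sterol sensing and uptake, 4 were called higher and 1 lower at E11.5, 1 higher and 2 lower at E14.5 and 6 higher and 1 lower at E16.5. Of the 6 efflux and carrier genes, 2 were called higher and 0 lower in each stage. Beside these counts, 13.2% of all genes were called higher and 9.83% lower at E11.5. The shares were 7.64% and 7.41% at E14.5 and 14.2% and 12% at E16.5.

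The profile of the 7 genes over the 15 means of stage and chase time was compared with that of all other genes. Each member's own Pearson r with the mean profile, of which it is a part, lay between 0.83 for Srebf2 and 0.97 for Insig1. Among the closest genes outside the 7 were Cyp51, the sterol demethylase (r = 0.99), Hnrnpk, an RNA-binding protein gene (r = 0.98), Hsd17b7, a sterol reductase of the pathway (r = 0.97), and Psmc1, a proteasome ATPase gene (r = 0.97). Cyp51 went from 811 to 493 cpm over 12 h in E11.5 and from 438 to 433 cpm in E16.5. These correlations describe 15 means over the same libraries and carry no test.

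Label content at the end of the pulse was close to that of the whole library for most members, higher for Idi1 and lower for Fdps. The conversion rate, the share of covered Ts read as C, was 1.68, 1.66 and 2.28% for Idi1 at E11.5, 1.71, 2.06 and 1.79% at E14.5 and 2.40, 2.58 and 2.46% at E16.5. Hmgcs1, near the whole library, had 1.13, 1.04 and 1.45% at E11.5, 1.09, 1.204 and 1.00% at E14.5 and 1.85, 1.96 and 1.94% at E16.5. Over all covered Ts the rate was 1.01 to 1.44% at E11.5, 1.03 to 1.18% at E14.5 and 1.80 to 1.91% at E16.5, so that Idi1 stood above the whole-library rate in all 9 libraries. Fdps had the lowest rate of the 7 at E14.5 and E16.5, with 0.91, 0.97 and 0.83% and 1.47, 1.74 and 1.76%. Its rate lay below that of its own library in all 9 libraries, by little in replicates A and C of E11.5.

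**Figure D4:**
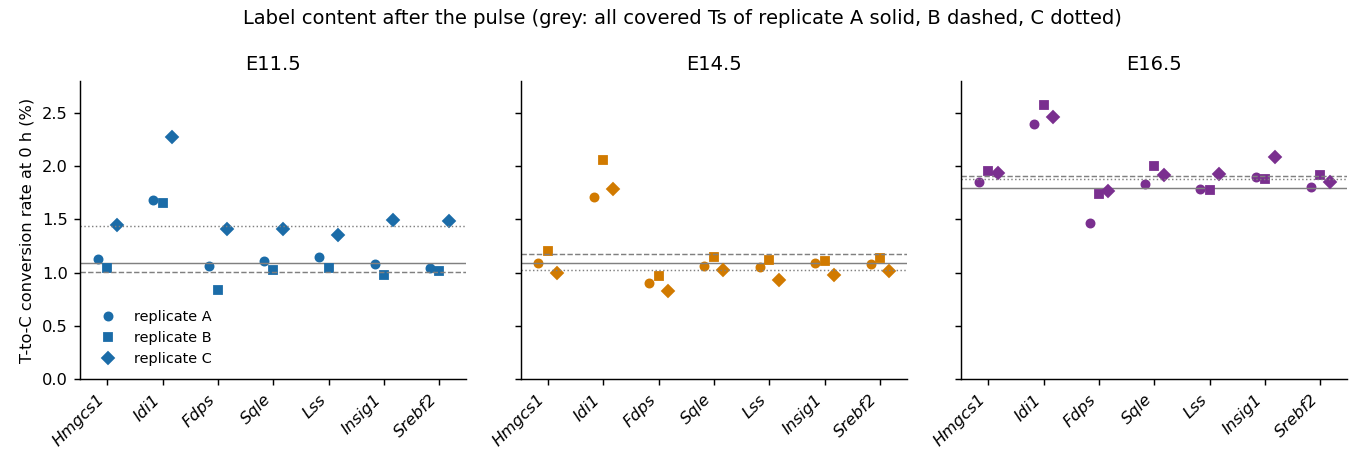
T-to-C conversion rate of the 7 genes at 0 h of chase in percent, with symbols for replicates A, B and C and grey lines for the rate over all covered Ts of each replicate's library. Idi1 is above its library's line in all 9 libraries and reaches 2.58% at E16.5.

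Relative to the library's rate, limma's F-test over the 3 stages called 1 of 7 members, Idi1 (adjusted p = 0.014), where 18.1% of the 12522 genes tested were called. Its relative rate was lower at E16.5, with a difference of -0.34 ± 0.06 on the log2 scale against E14.5 (adjusted p = 0.0074) and of -0.26 ± 0.06 against E11.5 (adjusted p = 0.024). Without any 1 of the E16.5 replicates A, B and C, limma's F-test of Idi1 no longer passed, with adjusted p of 0.055, 0.053 and 0.064. Without scaling to the library, the difference was 0.43 against E14.5 and 0.42 against E11.5, higher at E16.5 as for the whole library. The part of the copies of Idi1 described above in its rate was not tested.

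Half-lives of the members spread over most of the range of all transcripts, and no member differed between stages by the F-test. A half-life was fitted to the decline of the conversion rate over the 5 chase times in each replicate, and all 7 genes passed the coverage and fit filters at all stages, with 9505 transcripts in the comparison. Insig1 had the shortest half-lives at E14.5 and E16.5, with 2.88, 3.20 and 3.90 h for E11.5, then 2.87, 3.07 and 3.13 h for E14.5, then 2.54, 1.88 and 2.32 h for E16.5. That put it above only 20.0%, 11.4% and 14.9% of transcripts. Sqle had 3.13, 3.36 and 3.03 h for E11.5, then 3.45, 3.63 and 3.81 h for E14.5, then 2.79, 2.73 and 3.06 h for E16.5. Its mean was the lowest of the 7 at E11.5, next to that of Insig1 at E14.5, and above those of Insig1 and Idi1 at E16.5.

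Fdps had the longest half-lives of the 7 genes, with 5.39, 7.26 and 5.11 h for E11.5, then 5.86, 6.62 and 7.82 h for E14.5, then 6.40, 5.47 and 5.35 h for E16.5. It exceeded 82.0%, 87.3% and 90.3% of transcripts, and its replicates were more spread than those of the other members, with an R2 of the fit down to 0.76. Srebf2 came next with means of 5.05 ± 0.88, 5.54 ± 0.40 and 4.48 ± 0.22 h (SD, n = 3), above 67.5%, 72.1% and 75.5% of transcripts. Hmgcs1 (4.28 ± 0.30, 4.57 ± 0.21 and 3.96 ± 0.14 h) and Lss (4.91 ± 0.47, 4.81 ± 0.42 and 3.95 ± 0.46 h) lay in the middle. Of the 2 genes with a short 3′ untranslated region and no ATTTA, Fdps had the longest mean half-life of the 7 at each stage, and Sqle the shortest at E11.5. By the mean share of the 0 h rate left after 12 h, Fdps stood below Insig1 at each stage, with overlapping replicates at E11.5. The means were 17.7, 15.8 and 8.14% for Fdps and 22.4, 18.9 and 15.4% for Insig1. At E16.5 the mean rate of Fdps was 1.66% at both 0 and 2 h, which a single exponential does not follow. The order of these genes by half-life thus depends on the fitted curve.

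**Figure D5:**
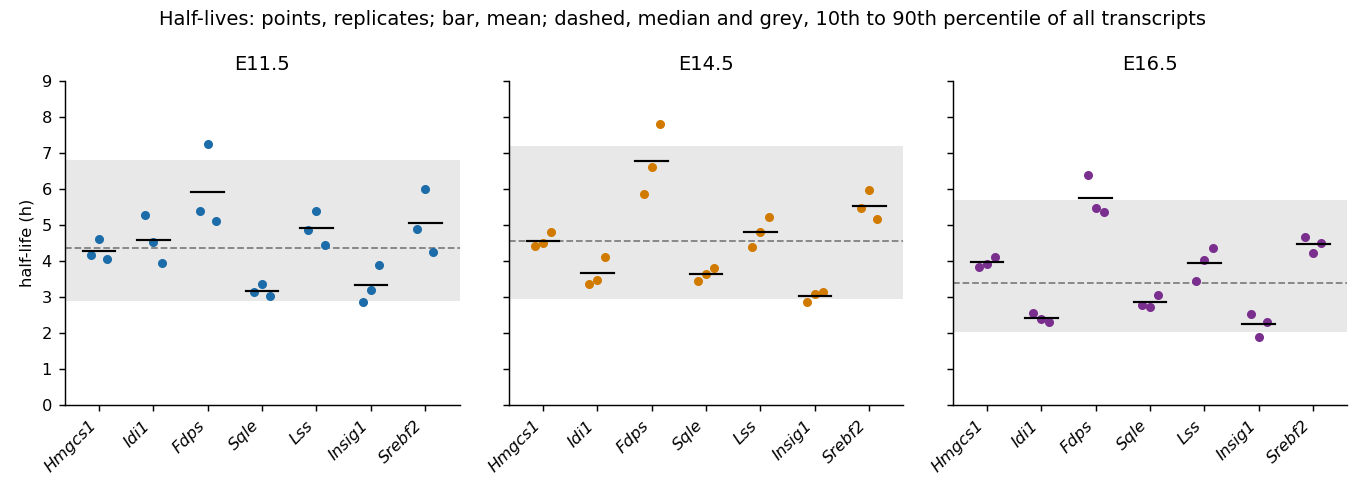
Half-lives of the 7 genes in hours per stage, with points for the 3 replicates, a bar for their mean, a dashed line for the median and a grey band for the 10th to 90th percentile of the 9505 transcripts. Fdps is near the top and Insig1 near the bottom of the band at each stage, and Idi1 moves from above the dashed line at E11.5 to the lower part of the band at E16.5.

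Idi1 had the largest move in rank among all transcripts of the 7 members. Its half-life was 5.29, 4.54 and 3.94 h for E11.5, then 3.37, 3.48 and 4.12 h for E14.5, then 2.57, 2.38 and 2.32 h for E16.5, with E16.5 below all others. It exceeded 56.3% of transcripts for E11.5, 25.04% for E14.5 and 20.3% for E16.5, while Sqle went the other way, to 34.0% for E16.5. The median over all transcripts also went from 4.35 h for E11.5 and 4.56 h for E14.5 to 3.38 h for E16.5, so each replicate's half-lives were turned into z-scores before testing. On that scale limma's F-test over stages called 0 of 7 members, where 3.15% of transcripts were called, with 2 members, Idi1 (adjusted p = 0.079) and Hmgcs1 (adjusted p = 0.14), at an unadjusted p under 0.05. In the pairwise contrast of E16.5 against E11.5, where 4.7% of transcripts were called, Idi1 alone passed, at -0.71 ± 0.16 z units (adjusted p = 0.046). This call was lost in limma without any 1 of the 9 replicates (-0.81 to -0.55) and with labelled RNA in place of the rate (-0.32, adjusted p = 0.34).

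The conversion rate is a share, so it declines when labelled RNA decays and also when unlabelled RNA is added, and total levels changed along the chase. Labelled RNA was taken as cpm times rate, without the library scaling (TMM) of the edgeR tests. With no unlabelled control, T-to-C reads that do not come from label could not be subtracted. The shares left and the half-lives may include such reads. From 8 to 12 h at E11.5, mean rates changed little for Insig1 (0.26 and 0.27%) and Sqle (0.19% at both times). That of Fdps fell from 0.30 to 0.19%. After 12 h at E11.5, Insig1 kept 38.0 ± 0.67% (SD, n = 3) of its 0 h total level and 22.4 ± 4.23% of its conversion rate. On this measure 8.51 ± 1.60% of its labelled RNA remained. Srebf2 kept 79.5 ± 5.80% of its total and 22.2 ± 4.47% of its rate, and 17.7 ± 4.11% of its labelled RNA remained. With library scaling, edgeR gave Srebf2 a 1.10-fold fall over the same 12 h (log2 fold change -0.14), smaller than in cpm. The shares of total and labelled RNA and the labelled half-lives depend on this choice of scale. At E16.5 the labelled RNA remaining after 12 h was 7.72 ± 2.22% for Fdps, the lowest of the 7, and 12.0 ± 2.78% for Lss, the highest. Fitted to labelled RNA in place of the rate, half-lives at E11.5 were 2.56 ± 0.38 h for Insig1, 4.07 ± 0.47 h for Lss and 3.69 ± 0.61 h for Idi1, shorter than from the rate. That of Sqle was 3.20 ± 0.02 h beside 3.17 ± 0.17 h from the rate, and that of Srebf2 was 5.04 ± 0.64 h beside 5.05 ± 0.88 h.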

How the data were processed

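Per the labels and the study's methods, the authors ran SlamDunk on mm10 with GENCODE vM24 exons and summed exons per gene; how reads with several alignments were treated is not given in the sources used here. The deposited tables, 1 per stage and replicate, hold covered-T counts, conversion rates as a fraction, reads as CPM and half-lives in hours (other values, used to check the refit). In all 45 libraries, 100% of CPM values above 0 were whole multiples of 1 read. No per-sample column was left unmatched (0).

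Covered-T counts were tested with edgeR 4.0.16 (quasi-likelihood, TMM), for genes with more than 10 counts in every library of a fit; 1 read adds several counts, so recovered reads were an alternative, as was DESeq2 1.42.0. Half-lives were refitted (exponential through the rate at 0 h), kept with more than 500 covered Ts at each time, 0 to 24 h and R2 above 0.6 in all 3 replicates, z-scored and tested with limma 3.58.1 (R 4.3.3). maSigPro, which the study used, was not run. Adjusted p are Benjamini-Hochberg values over all genes of a contrast, called under 0.05. Likeness used log2(cpm + 1). Lengths are exon unions. Scripts were tested on simulated data.

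The wells of 1 pool share its letter within a stage, per the labels, so letters pair libraries along the chase (deviations of same-letter libraries from their group means correlated at 0.05 to 0.70). Between stages a letter marks different embryos. Every pair of replicate libraries differed beyond sampling noise (chi-square per degree of freedom at least 2.15). The members and lists were chosen with earlier results of these data known. Named beyond the 7 members were, per list, up to 4 genes with the largest called change from E11.5 to E16.5, and the 5 genes closest in profile; some of these are not reported here.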

Additional observations from a re-analysis of the deposited data

Results flagged for a closer look

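The change over 12 h of chase differed between stages for several members, by the interaction test in edgeR. Between E16.5 and E11.5 the difference, on the log2 scale, was 0.87 for Hmgcs1, 1.25 for Idi1, 0.75 for Insig1, 1.17 for Lss and 0.54 for Sqle. Between E16.5 and E14.5 it was 0.66 for Hmgcs1, 0.87 for Idi1 and 0.87 for Lss. Groups of 3 replicates were too small to search for single outlying libraries.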

How the results depend on the processing

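Of 130 counts of calls under other settings with all replicates kept, 110 stayed within 1.5 times. In the 12 h libraries, 3 members were called between E14.5 and E16.5, and the log2 fold changes turned for Fdps (0.0093), Lss (0.25) and Insig1 (0.20) from E11.5 to E14.5, Lss (0.034) and Srebf2 (0.036) from E14.5 to E16.5, and Sqle (0.27) and Lss (0.29) from E11.5 to E16.5. Values near 0 turned without a count filter (Fdps 0.021, Srebf2 0.014, both from E11.5 to E14.5, and Fdps 0.031 in its chase difference) and on recovered reads (Srebf2 0.0039 from E14.5 to E16.5, Fdps 0.012 in its chase difference). With the replicate block, which pairs the wells of a pool, members called were 2 at 4 h for E11.5, 2 at 2 h for E14.5 and 1 at 2 h for E16.5, and all genes called at 12 h for E14.5 were 4966. For the difference of the 12 h change the block gave 4 and 6 members, and 2352 genes (E14.5 against E11.5), 1049 (E16.5 against E14.5) and 3199 (E16.5 against E11.5). For half-lives, 1 member was called in hours without scaling, on the log2 scale, at R2 over 0.8 and on labelled RNA. All transcripts called were 2296 in hours, 547 at R2 over 0.8 and 146 on labelled RNA. With the replicate letter as a block, 0 were called. For half-lives that block joins the same letter across stages, which marks different embryos, and it pairs no wells. Fitted without 0 h, the Idi1 difference from E14.5 to E16.5 was 0.27. Rates not scaled to the library called 7 members and 10226 genes, and Idi1 differed by -0.0048 from E11.5 to E14.5, 0.43 from E14.5 to E16.5 and 0.42 from E11.5 to E16.5. The cause was not tested in any of these cases.

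Leaving out 1 replicate at a time, Fdps ranged from -0.11 to 0.091 and Srebf2 from -0.058 to 0.061 from E11.5 to E14.5, and Srebf2 from -0.10 to 0.022 from E14.5 to E16.5 and from -0.081 to 0.0041 from E11.5 to E16.5. Chase differences ranged from -0.069 to 0.058 (Fdps) and -0.093 to 0.058 (Srebf2) between E14.5 and E11.5, and from -0.0061 to 0.14 (Srebf2) between E16.5 and E14.5. Members called were 0 to 1 at 4 h for each stage, 2 to 5 at 8 h for E11.5, 1 to 2 at 8 h for E14.5 and for E16.5, 3 to 3 at 12 h for E14.5, 1 to 2 at 12 h for E16.5, 0 to 1 and 1 to 3 for the 2 chase differences named, and 0 to 1 for rates. All genes called at 12 h were 1443 to 3974 (E11.5), 750 to 1735 (E14.5) and 2577 to 2900 (E16.5), and 516 to 998, 28 to 227 and 800 to 1724 for the chase difference of E14.5 against E11.5, E16.5 against E14.5 and E16.5 against E11.5. All transcripts called were 3 to 267 for half-lives and 1265 to 2135 for rates. Depth was lowest for Idi1, which had as few as 105 reads in a library, and next for Fdps, with as few as 421. After 12 h at E16.5 the conversion rates of Fdps were 0.16, 0.12 and 0.12%, from as few as 7616 covered Ts. Few converted Ts stand behind such rates.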
